A study of Mus musculus with 2 samples.

Results

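The 7 genes described here encode the main alpha- and beta-tubulins of brain: Tuba1a, Tuba1b and Tuba4a for alpha-tubulin, and Tubb2a, Tubb3, Tubb4a and Tubb5 for beta-tubulin. They were found by gene symbol, and all 7 are among the 32285 genes of the count tables. Nuclei came from the hippocampus of C57BL/6J mice that had received adeno-associated virus (AAV) in the ventricles of both hemispheres on postnatal day 0 and were studied at 6 weeks of age. The AAV-TAU vector expressed wild-type human tau in its full-length 2N4R form. The AAV-STOP vector encoded the same human MAPT message, but a STOP codon placed early in it blocks translation into tau. Mice of both groups thus received a vector with human MAPT sequence, and the promoter of the vectors is not given in the sources used here. Each group is 1 sample, a single library from the combined hippocampi of 3 mice. Differences below compare these 2 libraries, have no replicate check and carry no p-value. The intervals given are 95% intervals for counting error only (exact Poisson for a level, exact conditional binomial for a ratio, exact Clopper-Pearson for a share).

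Microtubules are polymers of alpha- and beta-tubulin dimers, and each family has several genes whose proteins, called isotypes, differ mostly at the acidic carboxy-terminal tail. Tau is a protein that binds and stabilises microtubules, above all in axons. Tuba1a is the main alpha-tubulin of developing neurons, Tubb3 is widely used as a neuronal marker, and Tubb4a is abundant in myelinating oligodendrocytes. Cells lower their tubulin mRNAs when free tubulin dimers are in excess: the factor TTC5 binds the first residues of a nascent tubulin chain on the ribosome and the mRNA is degraded, a step called autoregulation. A nucleus library samples nuclear RNA together with cytoplasmic RNA that stays attached to or floats around nuclei.

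The first 36 coding bases of each member are shown because they encode the stretch that autoregulation reads, with the first 4 codons in capitals (GENCODE vM21 transcripts, build GRCm38). The fourth codon is the same within each family and differs between the families.
Tuba1a, chromosome 15: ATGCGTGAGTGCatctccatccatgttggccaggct
Tuba1b, chromosome 15: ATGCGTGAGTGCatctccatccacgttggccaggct
Tuba4a, chromosome 1: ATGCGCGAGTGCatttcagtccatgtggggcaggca
Tubb2a, chromosome 13: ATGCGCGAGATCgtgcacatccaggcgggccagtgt
Tubb3, chromosome 8: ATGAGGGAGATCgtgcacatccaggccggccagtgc
Tubb4a, chromosome 17: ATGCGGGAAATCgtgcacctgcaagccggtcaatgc
Tubb5, chromosome 17: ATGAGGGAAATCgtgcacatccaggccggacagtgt

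The last 60 coding bases encode the carboxy-terminal tail and end in the stop codon (in capitals). They are shown for Tuba4a and the 4 beta-tubulins because the isotypes differ mostly at this tail. In the transcripts used, 1394 bases follow the stop codon in Tuba4a, 1061 in Tubb5, 624 in Tubb4a, 333 in Tubb3 and 194 in Tubb2a. Reads of a 3′ library near the transcript end therefore need not reach the stretch shown.
Tuba4a: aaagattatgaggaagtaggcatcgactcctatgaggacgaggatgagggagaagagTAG
Tubb2a: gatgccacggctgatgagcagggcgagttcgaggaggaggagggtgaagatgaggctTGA
Tubb3: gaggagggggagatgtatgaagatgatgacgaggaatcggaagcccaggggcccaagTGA
Tubb4a: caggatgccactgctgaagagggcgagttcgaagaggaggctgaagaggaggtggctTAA
Tubb5: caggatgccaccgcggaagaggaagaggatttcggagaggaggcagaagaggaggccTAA

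Tuba1a and Tuba1b were 98.3% identical over the coding sequence, whereas either of them was 84.7% to 85.0% identical to Tuba4a over the coding sequence. The 4 beta-tubulins were 81.4% to 84.6% identical to each other over the coding sequence and 47.5% to 79.4% over the last 60 bases. Of the 50-base windows in the last 500 bases of the transcript, 56.3% in Tuba1a, 63.6% in Tuba1b and 42.4% in Tubb2a also occur in transcripts of other genes, among them each other, Tuba1c, Tubb2b and pseudogenes. None of the 451 windows did so in Tuba4a, Tubb3, Tubb4a or Tubb5. Reads of Tuba1a, Tuba1b and Tubb2a that fall in such stretches can be lost or split between genes, so their values are uncertain in this respect.

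All 7 genes are short. In build mm10 (GRCm38), Tuba1a lies at chr15:98949837-98953703 and Tuba1b at chr15:98931425-98934565, both on the minus strand. Tuba4a lies at chr1:75214228-75219865, Tubb2a at chr13:34074274-34078007, Tubb4a at chr17:57080066-57087782 and Tubb5 at chr17:35833921-35838306, all on the minus strand. Tubb3 lies at chr8:123411424-123422015 on the plus strand and has the longest gene body of the 7, 10.6 kb. All are protein-coding. Tuba4a overlaps Stk16 on the opposite strand, which had 1383 AAV-TAU and 1321 AAV-STOP UMIs, and Tuba1b overlaps the gene model Gm41396, which had 282 AAV-TAU and 305 AAV-STOP UMIs.

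The AAV-TAU library held 19596 barcodes and 109428807 unique molecular identifiers (UMIs, each 1 captured RNA molecule), and the AAV-STOP library 20265 barcodes and 130252240 UMIs. After marked doublets were removed, 17733 AAV-TAU and 17963 AAV-STOP nuclei remained, with medians of 4931 and 5528 UMIs. The median mitochondrial share was 0.282% in AAV-TAU and 0.174% in AAV-STOP nuclei, and it was higher in AAV-TAU in 13 of the 14 classes compared, the exception being fibroblast-like nuclei. The 2 libraries shared 116 barcodes, which is 0.592% of AAV-TAU and 0.572% of AAV-STOP barcodes. Nuclei were clustered without any tubulin gene and named from marker lists, and 13 named classes with 100 or more nuclei in both libraries were compared. A 14th unit, called cluster 6, scored highest for the CA3 marker list but had none of those markers among its 10 leading genes, so it is left unnamed. Class sizes ranged from 4159 AAV-TAU and 5153 AAV-STOP dentate granule-like neurons to 119 AAV-TAU and 157 AAV-STOP CA2-like neurons. Microglia-like nuclei numbered 520 in AAV-TAU and 175 in AAV-STOP, and the subicular or cortical-like class drew 218 AAV-TAU and 524 AAV-STOP nuclei from its cluster 14 against 359 AAV-TAU and 282 AAV-STOP nuclei from its cluster 17.

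Tuba1a RNA was captured in similar amounts per nucleus in almost every class. Tuba1a gave 0.778 UMIs per nucleus in AAV-TAU and 0.493 in AAV-STOP dentate granule-like neurons, the most frequent neurons of the hippocampus. In microglia-like nuclei, which have the fewest UMIs of the classes, it gave 0.746 in AAV-TAU and 0.469 in AAV-STOP. Granule neurons and microglia thus overlapped in their counting intervals within each library, although the median depth was 5153 AAV-TAU and 5392 AAV-STOP UMIs in granule-like neurons and 1926 AAV-TAU and 2242 AAV-STOP UMIs in microglia-like nuclei.

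Among the other neurons, Tuba1a gave 0.819 AAV-TAU and 0.507 AAV-STOP UMIs per nucleus in CA1-like neurons, and 0.847 and 0.582 in the AAV-TAU and AAV-STOP inhibitory neuron-like nuclei. It gave 0.871 AAV-TAU and 0.582 AAV-STOP UMIs in cluster 6, and 0.823 AAV-TAU and 0.568 AAV-STOP UMIs in subicular or cortical-like neurons. Immature neuron-like nuclei, in which Tuba1a is known to be strong, stood only slightly above these per nucleus, with 0.885 AAV-TAU and 0.646 AAV-STOP UMIs. Their median depth was lower, at 2819.5 AAV-TAU and 2910.5 AAV-STOP UMIs. CA2-like neurons gave 0.664 AAV-TAU and 0.522 AAV-STOP UMIs, and Cajal-Retzius-like neurons 0.744 AAV-TAU and 0.476 AAV-STOP UMIs. Outside neurons, it gave 0.759 AAV-TAU and 0.532 AAV-STOP UMIs in oligodendrocyte-like nuclei, and 0.741 AAV-TAU and 0.473 AAV-STOP UMIs in their precursors. Astrocyte-like nuclei gave 0.733 AAV-TAU and 0.485 AAV-STOP UMIs and fibroblast-like nuclei 0.667 AAV-TAU and 0.491 AAV-STOP UMIs. The one class that stood apart was newly formed oligodendrocyte-like nuclei, with 1.29 AAV-TAU UMIs (interval 1.10 to 1.50) and 1.05 AAV-STOP UMIs (0.889 to 1.23). Its intervals lay above those of the other 13 units within each library, while most of those overlapped.

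Expressed as counts per 1000000 UMIs of the class (CPM), the same data put Tuba1a in another order, since a fixed count weighs more in a class with few UMIs. In AAV-TAU, Tuba1a was highest in microglia-like nuclei at 371 CPM (192 CPM in AAV-STOP). In AAV-STOP it was highest in newly formed oligodendrocyte-like nuclei, which had 313 CPM in AAV-TAU and 241 CPM in AAV-STOP. In both libraries it was lowest in CA2-like neurons at 69.8 CPM in AAV-TAU and 50.2 CPM in AAV-STOP. Immature neuron-like nuclei stood well above granule-like neurons in CPM, at 269 CPM in AAV-TAU and 198 CPM in AAV-STOP. Granule-like neurons stood at 144 CPM in AAV-TAU and 86.9 CPM in AAV-STOP. Over the 14 units the Spearman correlation of Tuba1a CPM with the median UMIs of the class was -0.88 in AAV-TAU and -0.79 in AAV-STOP, a description over units that share a library. In 12 of the 13 neighbouring pairs of the order by mean CPM, the ranges over the 2 libraries overlapped, so the order of neighbours is not resolved. Tuba1b and Tuba4a had lower counts. Tuba1b gave 0.177 to 0.310 UMIs per nucleus over the AAV-TAU classes and 0.133 to 0.227 over the AAV-STOP classes. Tuba4a, the alpha-tubulin of mature neurons and some other mature cells, gave 0.155 to 0.361 UMIs over the AAV-TAU classes and 0.113 to 0.223 over the AAV-STOP classes. Per nucleus, its AAV-TAU counts were lowest in newly formed oligodendrocyte-like nuclei at 0.155 (interval 0.0947 to 0.239) and highest in CA2-like neurons at 0.361 (0.262 to 0.487). These ends rest on 20 and 43 UMIs, and in AAV-STOP the ends were immature neuron-like nuclei and cluster 6. By mean CPM, Tuba4a was highest in microglia-like nuclei, like Tuba1a, and CA2-like neurons ranked 13 of 14. Over classes and libraries the log2 CPM patterns of Tuba1a and Tuba4a correlated at 0.82. Per kilobase of exon and averaged over the libraries, Tuba1a made up 64.1% (CA2-like neurons) to 82.9% (newly formed oligodendrocyte-like nuclei) of the CPM of the 3 alpha-tubulins.

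Of the beta-tubulins, Tubb3 and Tubb4a were less uniform per nucleus, and Tubb4a stood out in oligodendrocytes and newly formed oligodendrocytes. Tubb4a gave 1.54 UMIs per nucleus (interval 1.49 to 1.597) in AAV-TAU and 1.68 (1.62 to 1.74) in AAV-STOP oligodendrocyte-like nuclei. Newly formed oligodendrocyte-like nuclei held still more, 1.95 in AAV-TAU and 2.37 in AAV-STOP, whereas the precursors held 0.196 in AAV-TAU and 0.157 in AAV-STOP. The precursors were thus at the level of astrocyte-like nuclei, with 0.165 AAV-TAU and 0.173 AAV-STOP UMIs, and of microglia-like nuclei, with 0.162 AAV-TAU and 0.149 AAV-STOP UMIs. Among neurons, Tubb4a per nucleus was highest in CA2-like neurons (0.580 AAV-TAU and 0.497 AAV-STOP UMIs) and in cluster 6 (0.563 AAV-TAU and 0.574 AAV-STOP UMIs). These units had the highest median depths. Granule-like neurons gave 0.268 in AAV-TAU and 0.215 in AAV-STOP. In CPM, immature neuron-like nuclei led the neurons instead, at 87.8 CPM in AAV-TAU and 69.9 CPM in AAV-STOP. By mean CPM, cluster 6 ranked 9 and CA2-like neurons 11 of the 14 units. In 11 of the 13 neighbouring pairs of this order, the ranges over the 2 libraries overlapped. A Tubb4a UMI was seen in 73.0% of AAV-TAU and 75.8% of AAV-STOP oligodendrocyte-like nuclei, against 15.4% of AAV-TAU and 13.7% of AAV-STOP microglia-like nuclei, which are of similar depth (medians of 2393 AAV-TAU and 2591 AAV-STOP UMIs in oligodendrocyte-like nuclei). With every nucleus thinned to 1600 UMIs these shares were 59.1% of AAV-TAU and 58.7% of AAV-STOP oligodendrocyte-like nuclei and 11.7% of AAV-TAU and 10.9% of AAV-STOP microglia-like nuclei. Oligodendrocyte-like nuclei, at 588.3 CPM in AAV-TAU and 588.4 CPM in AAV-STOP, and newly formed ones, at 474 CPM in AAV-TAU and 545 CPM in AAV-STOP, were the top of the Tubb4a order, and their ranges over the 2 libraries overlapped neither each other nor the next class.

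Per nucleus, Tubb3 was higher in most neurons than in glia. Inhibitory neuron-like nuclei gave 0.684 Tubb3 UMIs per nucleus in AAV-TAU and 0.593 in AAV-STOP, CA1-like neurons 0.545 in AAV-TAU and 0.447 in AAV-STOP, and cluster 6 gave 0.556 in AAV-TAU and 0.429 in AAV-STOP. Subicular or cortical-like neurons gave 0.546 in AAV-TAU and 0.440 in AAV-STOP, and immature neuron-like nuclei 0.477 in AAV-TAU and 0.349 in AAV-STOP. Granule-like neurons were far lower, at 0.299 in AAV-TAU and 0.215 in AAV-STOP, close to oligodendrocyte-like nuclei at 0.250 in AAV-TAU and 0.208 in AAV-STOP. Cajal-Retzius-like neurons, at 0.279 in AAV-TAU and 0.153 in AAV-STOP, did not separate from glia by their intervals. The lowest value was that of newly formed oligodendrocyte-like nuclei, 0.186 in AAV-TAU and 0.109 in AAV-STOP. The share of nuclei with a Tubb3 UMI was 40.3% in AAV-TAU and 33.7% in AAV-STOP CA1-like neurons, at median depths of 7163 AAV-TAU and 7449 AAV-STOP UMIs. Astrocyte-like nuclei, which should lack this neuronal gene, showed 18.7% in AAV-TAU and 14.01% in AAV-STOP at medians of 2563.5 AAV-TAU and 2694 AAV-STOP UMIs, and at 1600 UMIs the AAV-TAU share in CA1-like neurons, 11.6%, lay below the 12.4% in AAV-TAU astrocyte-like nuclei. The thinned shares therefore give no order between these classes. In CPM, too, neurons and glia were interleaved: Tubb3 stood at 72.7 CPM in AAV-TAU and 57.4 CPM in AAV-STOP CA1-like neurons, against 95.5 CPM in AAV-TAU and 72.9 CPM in AAV-STOP oligodendrocyte-like nuclei. It stood at 55.4 CPM in AAV-TAU and 37.9 CPM in AAV-STOP granule-like neurons, and at 110 CPM in AAV-TAU and 90.5 CPM in AAV-STOP inhibitory neuron-like nuclei.

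Tubb2a, a major beta-tubulin of mature neurons, gave 0.732 UMIs per nucleus in AAV-TAU and 0.628 in AAV-STOP granule-like neurons and 0.870 in AAV-TAU and 0.694 in AAV-STOP CA1-like neurons. Oligodendrocyte-like nuclei were lower per nucleus, at 0.530 in AAV-TAU and 0.380 in AAV-STOP. In CPM the order was reversed, with Tubb2a at 202 CPM in AAV-TAU and 133 CPM in AAV-STOP oligodendrocyte-like nuclei. Granule-like neurons stood at 136 CPM in AAV-TAU and 111 CPM in AAV-STOP, and CA1-like neurons at 116 CPM in AAV-TAU and 89.3 CPM in AAV-STOP. Tubb5, a broadly expressed beta-tubulin, varied little per nucleus: it ranged from 0.303 to 0.589 UMIs over the AAV-TAU classes and from 0.278 to 0.416 over the AAV-STOP classes. Its highest value per nucleus in both libraries was in immature neuron-like nuclei, with 0.589 in AAV-TAU and 0.416 in AAV-STOP. Per kilobase of exon, Tubb2a was the leading beta-tubulin in granule-like neurons, with 53.6% of the CPM of the 4 members, and in CA1-like neurons with 46.7%. In inhibitory neuron-like nuclei Tubb3 reached 31.1%, its highest share. Tubb4a made up 58.5% in oligodendrocyte-like and 62.8% in newly formed oligodendrocyte-like nuclei, against 10.6% to 22.4% in the other 12 units.

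**Figure D1:**
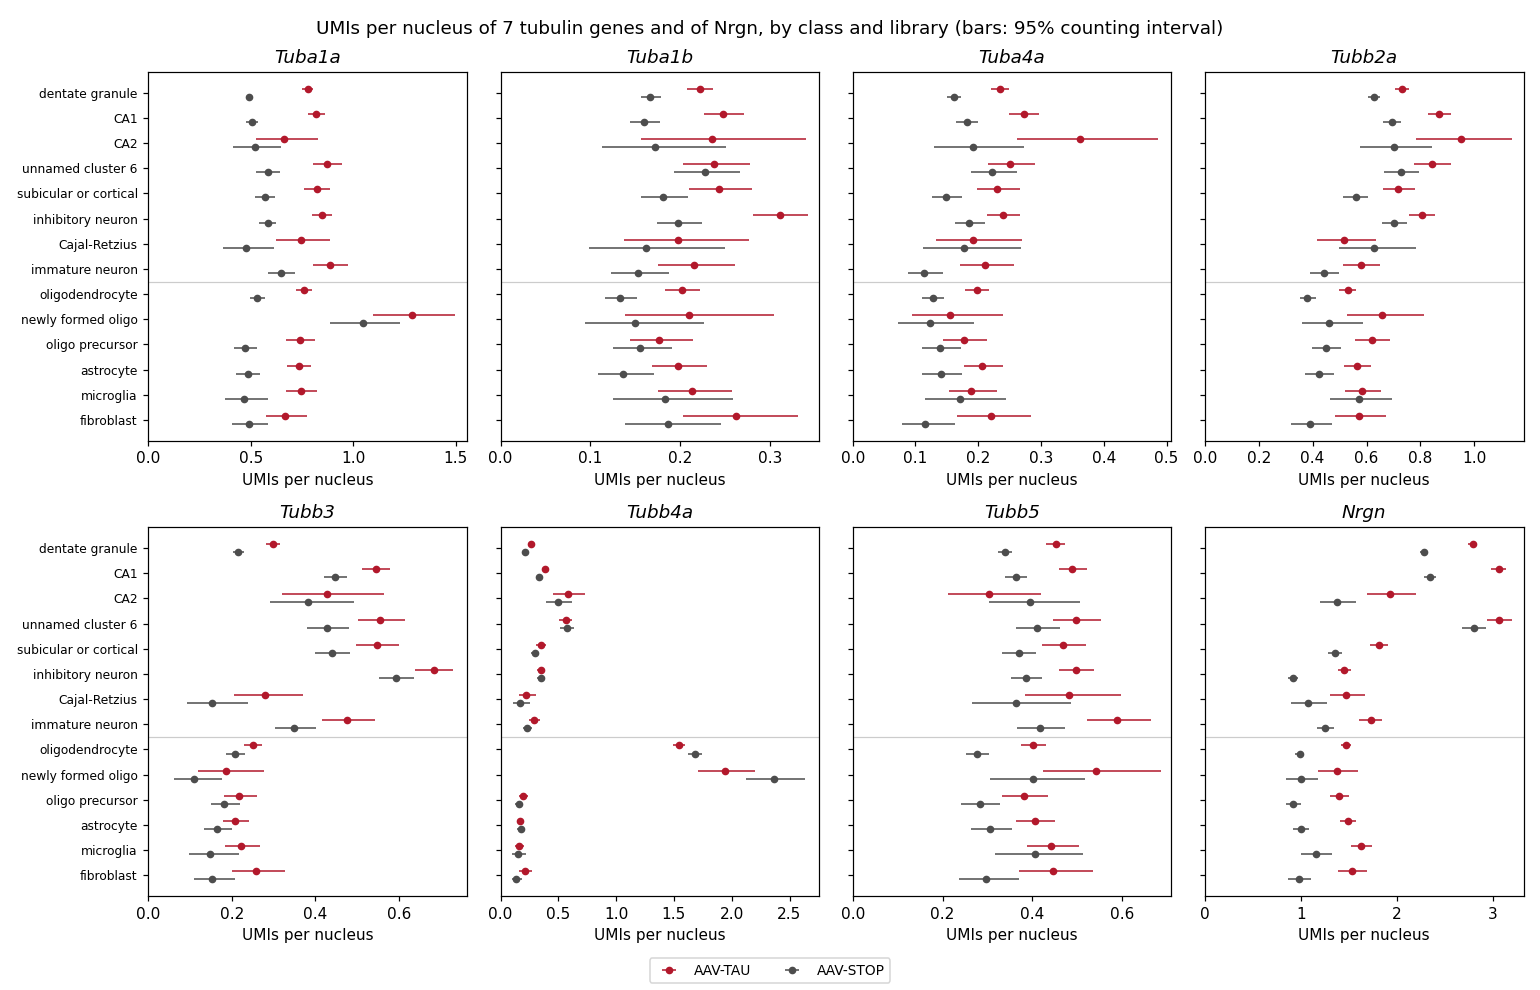
UMIs per nucleus (x axis, from 0) of the 7 tubulin genes and of the neuronal gene Nrgn in 14 classes, with AAV-TAU in red above AAV-STOP in grey, bars for the 95% counting interval and a grey line between neurons and other classes. Tuba1a, Tuba1b and Tubb5 are nearly level over the classes, Tubb4a stands out in oligodendrocyte and newly formed oligodendrocyte nuclei (1.54 and 1.95 in AAV-TAU), and Tubb3 per nucleus is higher in most neurons.

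**Figure D2:**
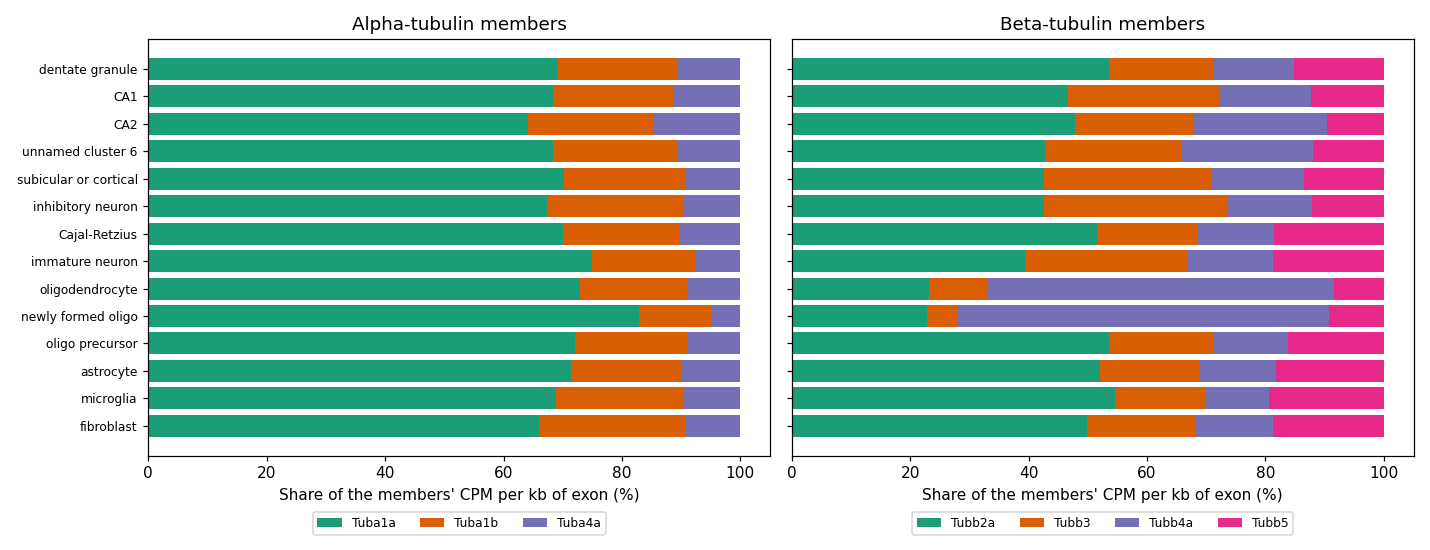
Share of each member in the summed CPM per kilobase of exon of the 3 alpha-tubulins (left) and the 4 beta-tubulins (right), averaged over both libraries, in 14 classes. Tubb4a takes 58.5% of the beta-tubulin members in oligodendrocyte nuclei, and Tuba1a takes 64.1% to 82.9% of the alpha-tubulin members.

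Between the libraries, tubulin RNA was higher in AAV-TAU in nearly every class. A gene was called higher if its CPM was at least 25% above that in AAV-STOP and lower if at least 20% below it, given 100 or more UMIs over both libraries in the class. Of 86 values of a member in a class that met this count, 70 were higher in AAV-TAU and 0 were lower. Of all genes measured, those called lower made up 1.14% in granule-like, 1.4% in CA1-like and 6.75% in CA2-like neurons, 2.3% in cluster 6, 6.19% in subicular or cortical-like, 1.95% in inhibitory, 13.1% in Cajal-Retzius-like and 6.24% in immature neurons. They made up 4.37% in oligodendrocyte-like nuclei, 11.4% in newly formed ones, 6.43% in precursors, 8.65% in astrocyte-like, 13.3% in microglia-like and 15.9% in fibroblast-like nuclei. These calls are by size alone, and no test was possible with 1 library per group.

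In dentate granule-like neurons 6 of 7 members were higher, against 13.1% of all 12943 genes measured there and 22.5% of genes with a body under 20 kb, the length class of all 7 members. Tuba1a stood at 144 CPM in AAV-TAU and 86.9 CPM in AAV-STOP, a ratio of 1.66 (interval 1.58 to 1.75), and this ratio lay above those of 99.3% of all genes measured in the class. Tuba4a was at 43.4 CPM in AAV-TAU and 28.5 CPM in AAV-STOP (ratio 1.52), and Tubb3 at 55.4 CPM in AAV-TAU and 37.9 CPM in AAV-STOP (ratio 1.46). Tuba1b and Tubb5 each had a ratio of 1.40, and Tubb4a one of 1.31. The class held 5 finer clusters of uneven size in the libraries, such as 497 AAV-TAU and 1342 AAV-STOP nuclei in cluster 4 and 1361 AAV-TAU and 866 AAV-STOP nuclei in cluster 1. Over them the ratio was 1.37 to 1.69 for Tuba1a and 0.995 to 1.59 for Tubb4a. Tubb2a, the most abundant beta-tubulin there, was at 136 CPM in AAV-TAU and 111 CPM in AAV-STOP, and its ratio of 1.23 (1.17 to 1.29) fell short of a call. The median log2 ratio of the members was 0.46, beside 0.06 over all genes measured and 0.10 over those under 20 kb.

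CA1-like neurons showed 6 of 7 members higher, against 11.9% of all genes and 21.8% of short genes. Tuba1a was at 109 CPM in AAV-TAU and 65.2 CPM in AAV-STOP (ratio 1.68, interval 1.56 to 1.81), and Tuba1b at 33.1 CPM in AAV-TAU and 20.6 CPM in AAV-STOP (1.61). The beta-tubulins moved less: Tubb5 had a ratio of 1.40, Tubb2a of 1.30, Tubb3 of 1.27 and Tubb4a of 1.19, the last short of a call. In cluster 6, 4 of 7 members were higher, against 13.1% of all genes and 23.3% of short genes. There Tuba1a was at 90.5 CPM in AAV-TAU and 55.9 CPM in AAV-STOP (1.62, 1.42 to 1.84), while the intervals of Tuba1b (ratio 1.13), Tuba4a (1.22) and Tubb4a (1.06) included 1. In inhibitory neuron-like nuclei 4 of 7 were higher, against 12.3% of all genes and 24.9% of short genes. The 3 alpha-tubulins and Tubb5 made up these 4, with ratios of 1.36 to 1.65, whereas Tubb2a and Tubb3 each had 1.21 and Tubb4a 1.05 (0.919 to 1.198).

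In the smaller neuronal classes, subicular or cortical-like neurons had 6 of 7 members higher (13.6% of all genes and 25.6% of short genes) and immature neuron-like nuclei 7 of 7 (11.9% and 27.2%). CA2-like neurons had 3 of 4 measured members higher (9.03% and 19.6%) and Cajal-Retzius-like neurons 2 of 3 (14.3% and 39.2%). Tubb2a in Cajal-Retzius-like neurons was 1 of the 2 values with a ratio under 1 beyond rounding, at 198 CPM in AAV-TAU and 223 CPM in AAV-STOP (0.884, 0.645 to 1.21), and its interval included 1.

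In glia the ratios of the members with enough counts were above 1, except for Tubb4a in oligodendrocyte-like and newly formed oligodendrocyte-like nuclei. In oligodendrocyte-like nuclei 6 of 7 members were higher, against 18.7% of all genes and 33.1% of short genes. Tuba1a was at 290 CPM in AAV-TAU and 186 CPM in AAV-STOP (ratio 1.55), Tuba4a at 75.3 CPM in AAV-TAU and 44.5 CPM in AAV-STOP (1.69), and Tubb5 at 153 CPM in AAV-TAU and 97.3 CPM in AAV-STOP (1.58). Tubb4a, the isotype that this class holds above all others, had a ratio of 1.00 (0.950 to 1.05), and its interval did not overlap those of the other 6. In newly formed oligodendrocyte-like nuclei 3 of 4 measured members were higher, against 12.7% of all genes and 29.5% of short genes, and Tubb4a had a ratio of 0.869 (0.736 to 1.03). The 12 oligodendrocyte markers of the list used for naming summed to 21944 CPM in AAV-TAU and 24327 CPM in AAV-STOP oligodendrocyte-like nuclei, and 2 of the 12 had a higher CPM in AAV-TAU. The part of this in the Tubb4a ratio was not tested.

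Astrocyte-like nuclei had 6 of 7 members higher (17.4% of all genes and 35.1% of short genes), oligodendrocyte precursor-like nuclei 6 of 7 (15.7% and 38.7%), microglia-like nuclei 6 of 7 (17.3% and 41%) and fibroblast-like nuclei 5 of 5 measured (16.4% and 36.4%). Tuba1a was at 276 CPM in AAV-TAU and 170 CPM in AAV-STOP astrocyte-like nuclei (ratio 1.62, 1.41 to 1.87). In astrocytes as well, Tubb4a was the member without a call, at 62.1 CPM in AAV-TAU and 60.8 CPM in AAV-STOP (1.02). In microglia-like nuclei, where the AAV-STOP library gave only 82 Tuba1a UMIs, the Tuba1a ratio of 1.94 had the wide interval of 1.52 to 2.49. Of the 6 calls in precursors, 3 had counting intervals that included 1 (Tuba4a, Tubb3 and Tubb4a), as did 3 of the 6 in microglia-like nuclei (Tuba1b, Tuba4a and Tubb4a). So did the calls of Tubb4a in CA2-like and immature neurons and of Tubb5 in Cajal-Retzius-like and newly formed oligodendrocyte-like nuclei. Over all classes with enough counts, Tuba1a was called in 14 of 14 and Tubb5 in 13 of 13, Tuba1b in 9 of 11, Tuba4a in 9 of 10, Tubb3 in 10 of 12, Tubb2a in 10 of 14 and Tubb4a in 5 of 12. The median ratio over these classes was 1.59 for Tuba1a, 1.54 for Tuba4a, 1.42 for Tuba1b, 1.40 for Tubb5, 1.33 for Tubb3, 1.31 for Tubb2a and 1.19 for Tubb4a, with Tuba1b and Tubb5 hardly apart. No test of the order was possible, and the Tuba1a, Tuba1b and Tubb2a values carry the uncertainty from shared sequence given above.

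**Figure D3:**
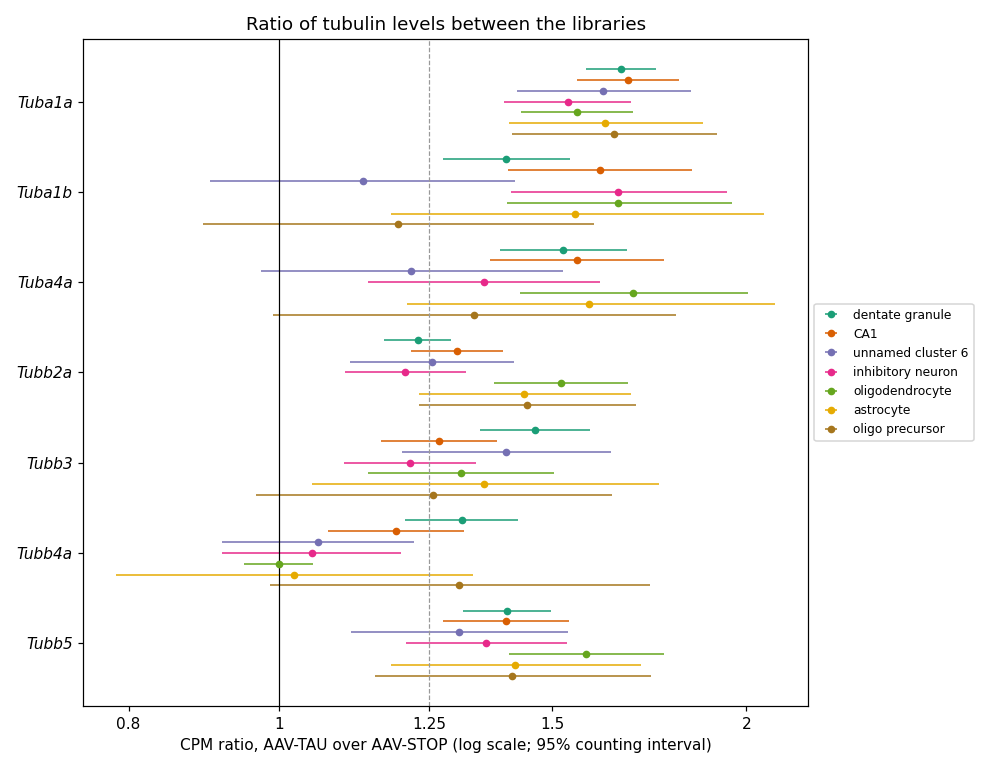
CPM ratio of AAV-TAU over AAV-STOP (log axis) for each member in 7 units, namely granule, CA1 and inhibitory neurons, cluster 6, oligodendrocytes, their precursors and astrocytes; bars are 95% counting intervals and the dashed line marks the call limit of 25% higher. Tuba1a lies between 1.53 and 1.68 in all 7, and Tubb4a in oligodendrocyte nuclei lies at 1.00.

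Of the neuronal genes counted in glial nuclei, Nrgn and Hpca, chosen after their values were seen, differed between the libraries by a similar factor. Slc17a7, Camk2a and Syt1 differed less. Snap25 came close to Nrgn in oligodendrocyte-like and astrocyte-like nuclei, but not in precursor-like and microglia-like nuclei. Nrgn encodes neurogranin, a calmodulin-binding protein of excitatory neurons, and Hpca encodes the neuronal calcium sensor hippocalcin, and glia should lack both. Nrgn gave 1.47 UMIs per nucleus in AAV-TAU and 0.987 in AAV-STOP oligodendrocyte-like nuclei, 1.49 in AAV-TAU and 0.998 in AAV-STOP astrocyte-like nuclei, and 1.63 in AAV-TAU and 1.15 in AAV-STOP microglia-like nuclei. These counts are nearly as even over the glial classes as those of Tuba1a. In CPM, the ratio of Nrgn was 1.59 to 1.71 over the 4 glial classes (oligodendrocyte-, precursor-, astrocyte- and microglia-like) and that of Hpca 1.53 to 1.78, and all 8 intervals lay above 1. In the same 4 classes the ratios of Tuba1a were 1.55 to 1.94 and those of Tubb5 1.33 to 1.58. Snap25, a fusion protein of nerve terminals, had ratios of 1.12 to 1.596 there. Slc17a7, the vesicular glutamate transporter of excitatory neurons, had ratios of 1.00 to 1.17 over these 4 classes, Camk2a, a kinase subunit of excitatory synapses, 0.878 to 1.252, and Syt1, the calcium sensor of synaptic vesicles, 0.893 to 1.18. Neuronal genes in glia thus did not share 1 ratio between the libraries.

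For each Nrgn UMI, glial classes held 0.459 to 0.529 Tuba1a UMIs in AAV-TAU and 0.406 to 0.539 in AAV-STOP, a spread of 1.15-fold in AAV-TAU and 1.33-fold in AAV-STOP. Tubb5 per Nrgn UMI was 0.272 to 0.274 over the 4 AAV-TAU classes and 0.281 to 0.351 over the 4 AAV-STOP classes. Tuba1b, Tuba4a and Tubb2a spread by 1.09-fold to 1.28-fold and Tubb3 by 1.24-fold in AAV-TAU and 1.64-fold in AAV-STOP. Tubb4a departed from this, spreading by 10.6-fold in AAV-TAU and 13.2-fold in AAV-STOP, with oligodendrocyte-like nuclei highest. The part of free RNA in these counts and in the difference between the libraries was not tested. The 4 general markers of excitatory neurons (Slc17a7, Camk2a, Nrgn and Hpca) summed to 1089 CPM in AAV-TAU and 741 CPM in AAV-STOP oligodendrocyte-like nuclei, 1086 CPM in AAV-TAU and 738 CPM in AAV-STOP astrocyte-like nuclei, and 1583 CPM in AAV-TAU and 1128 CPM in AAV-STOP microglia-like nuclei, with none at 0. Nrgn and Hpca made up most of these sums, in oligodendrocyte-like nuclei 559 CPM in AAV-TAU and 346 CPM in AAV-STOP for Nrgn and 248 CPM in AAV-TAU and 154 CPM in AAV-STOP for Hpca.

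Set against the mean of the 4 glial classes, 0.745 Tuba1a UMIs per nucleus in AAV-TAU and 0.490 in AAV-STOP, granule-like neurons held 0.0331 more in AAV-TAU and 0.00387 more in AAV-STOP, and CA1-like neurons 0.0743 more in AAV-TAU and 0.0174 more in AAV-STOP. These surpluses had ratios of 8.55 in granule-like and 4.26 in CA1-like neurons, over very small AAV-STOP values, against 1.11 in inhibitory neuron-like nuclei and 0.899 in immature neuron-like nuclei, so the classes differed widely. For Tubb3 the surplus was large: CA1-like neurons held 0.320 more than glia in AAV-TAU and 0.271 more in AAV-STOP, a ratio of 1.18, and inhibitory neuron-like nuclei 0.459 more in AAV-TAU and 0.417 more in AAV-STOP, a ratio of 1.10. The Tubb2a surplus in granule-like neurons was 0.157 in AAV-TAU and 0.172 in AAV-STOP (ratio 0.915), and in CA1-like neurons 0.296 in AAV-TAU and 0.239 in AAV-STOP (1.24). The Tubb4a surplus of oligodendrocyte-like nuclei over the other 3 glial classes was 1.37 in AAV-TAU and 1.52 in AAV-STOP (0.900). The CPM ratios of Tubb3 were 1.27 in CA1-like and 1.21 in inhibitory neuron-like nuclei. They are scaled by depth and the surpluses per nucleus are not, so the gap between them is not due to the glial level alone. These surpluses have no interval here and were computed after the class levels were seen.

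**Figure D4:**
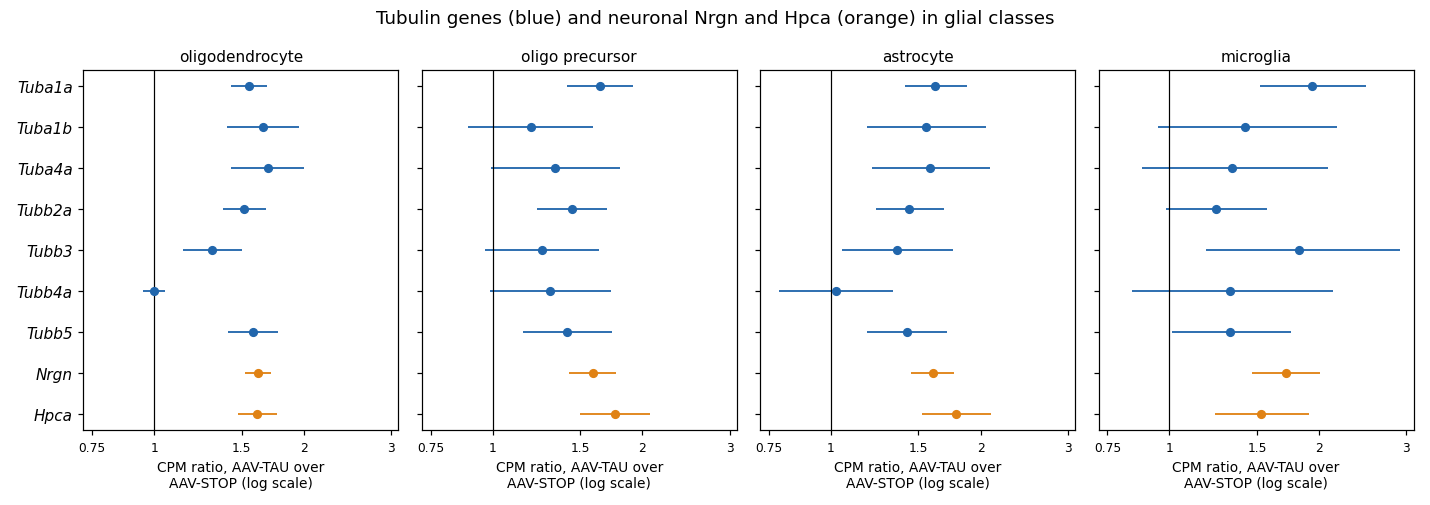
CPM ratio of AAV-TAU over AAV-STOP (log axis, bars for 95% counting intervals) of the 7 tubulin genes in blue and of Nrgn and Hpca in orange, in 4 glial classes. Nrgn lies at 1.59 to 1.71 and Hpca at 1.53 to 1.78, while Tubb4a in oligodendrocyte nuclei lies at 1.00. Of genes that are not drawn, Slc17a7, Camk2a and Syt1 lie at 0.878 to 1.252 and Snap25 at 1.12 to 1.596.

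The synaptic genes Camk2a and Snap25 were spread over the classes in another way than Tuba1a. Camk2a gave 7.79 UMIs per nucleus in AAV-TAU and 8.39 in AAV-STOP granule-like neurons, against 0.425 in AAV-TAU and 0.370 in AAV-STOP oligodendrocyte-like nuclei. Snap25 gave 4.03 in AAV-TAU and 4.06 in AAV-STOP granule-like neurons. In oligodendrocyte-like nuclei Snap25 gave 0.775 in AAV-TAU and 0.529 in AAV-STOP, so its counts differed between the libraries in these glia and hardly in granule-like neurons. Over the classes the highest Camk2a level per nucleus was 38.3 times the lowest in AAV-TAU and 48.2 times in AAV-STOP, against 1.94 times in AAV-TAU and 2.24 times in AAV-STOP for Tuba1a. Nrgn and Hpca were nearer to Tuba1a, at 2.23 times in AAV-TAU and 3.06 times in AAV-STOP for Nrgn. For Hpca these were 3.61 times in AAV-TAU and 4.82 times in AAV-STOP.

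Mitochondrial RNA, which comes from outside the nucleus, was also higher in AAV-TAU. Its 13 genes summed to 3398 CPM in AAV-TAU and 2390 CPM in AAV-STOP granule-like neurons (ratio 1.42), beside a ratio of 1.42 for the 7 tubulins together. In CA1-like neurons the ratios were 1.71 for mitochondrial RNA and 1.40 for the tubulins. In fibroblast-like nuclei mitochondrial RNA had a ratio of 0.930 and the tubulins 1.61, so the pair did not always move together. When nuclei were parted by their mitochondrial share, a split added after the data were seen, the summed tubulin CPM of granule-like neurons stayed higher in AAV-TAU in each of the 4 ranges, with ratios of 1.35, 1.44, 1.33 and 1.31 from low to high. In nuclei with a share of 0.1% or less it was 484 CPM in AAV-TAU and 358 CPM in AAV-STOP. In oligodendrocyte-like nuclei the 4 ratios were 1.13, 1.203, 1.24 and 1.29. In CA1-like neurons they were 1.40, 1.41, 1.32 and 1.10, and in cluster 6 they were 1.30, 1.31, 1.33 and 0.851, the last from 92 AAV-TAU and 35 AAV-STOP nuclei.

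**Figure D5:**
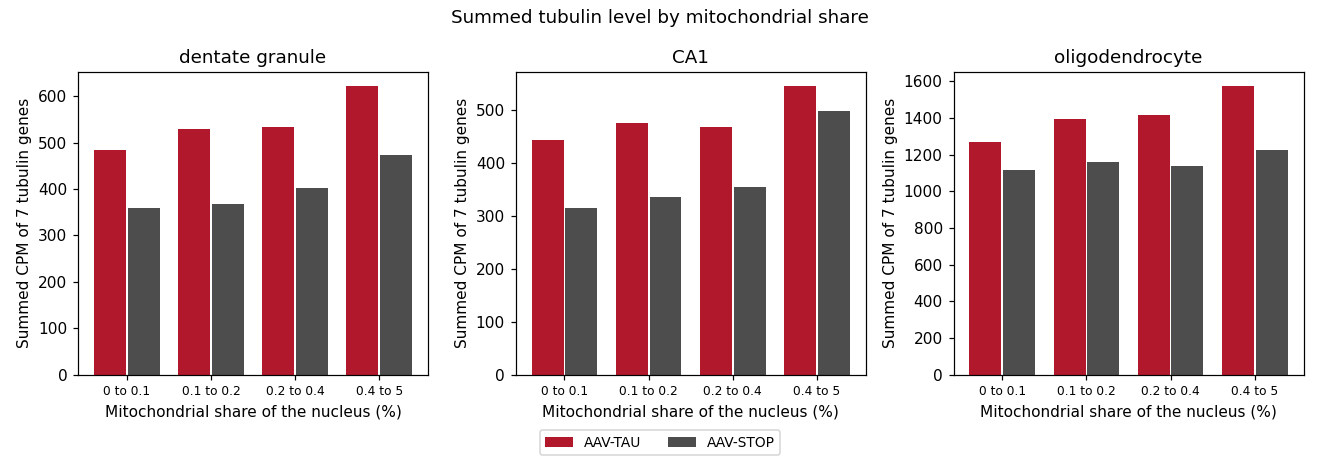
Summed CPM of the 7 tubulin genes (y axis, from 0) in nuclei grouped by mitochondrial share (x axis), AAV-TAU in red left of AAV-STOP in grey, for granule neurons, CA1 neurons and oligodendrocytes. AAV-TAU is higher in each of the 12 pairs of bars, by ratios of 1.10 to 1.44.

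Among genes that act with tubulin, the number of calls differed between lists and between classes. Of the 13 other tubulin genes, 6 were measured in granule-like neurons and 5 were higher. Tubb4b, a widely expressed beta-tubulin, was at 31.5 CPM in AAV-TAU and 18.2 CPM in AAV-STOP (ratio 1.73, 1.55 to 1.95), Tubg1, the gamma-tubulin of nucleation sites, had a ratio of 1.43 and Tubb2b, a neuronal beta-tubulin, one of 1.27. Tubb4b was also higher in CA1-like neurons (1.49), inhibitory neuron-like nuclei (1.47), cluster 6 (1.62), oligodendrocyte-like nuclei (1.76) and astrocyte-like nuclei (1.601). Of 14 subunits of the chaperonin CCT and of prefoldin, which fold newly made tubulin, 7 were higher and 0 lower in granule-like neurons and 8 and 0 in CA1-like neurons. The granule count was 3 and the CA1 count 4 when CPM were rescaled by the median of gene ratios. Pfdn5 was at 41.7 CPM in AAV-TAU and 28.8 CPM in AAV-STOP granule-like neurons (1.45), and Cct6a at 76.4 CPM in AAV-TAU and 57.3 CPM in AAV-STOP (1.33). In oligodendrocyte-like nuclei 8 of 14 were higher, led by Pfdn5 with a ratio of 1.68 and Cct7 with 1.61. Of the 7 folding cofactors, which join alpha- and beta-tubulin into dimers, 3 were higher in granule-like neurons (Tbcb 1.47, Tbcc 1.35 and Arl2 1.27), 3 in CA1-like neurons and 2 in inhibitory neuron-like nuclei.

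The 4 autoregulation genes showed 0 calls in granule-like and 0 in CA1-like neurons, with median log2 ratios of 0.05 in each. Ttc5, which reads the nascent tubulin chain, was at 79.7 CPM in AAV-TAU and 77.6 CPM in AAV-STOP granule-like neurons (ratio 1.03). Scaper, its partner that links to the deadenylase, was at 169 CPM in AAV-TAU and 162 CPM in AAV-STOP (1.04). Enzymes that modify tubulin after assembly showed 0 of 16 measured calls in granule-like neurons, 1 of 15 in CA1-like neurons (Svbp, the partner of the detyrosinating vasohibins, 1.42) and 1 of 16 in inhibitory neuron-like nuclei (again Svbp, 1.54). Nucleation and severing genes gave 0 of 12 in granule-like and 0 of 12 in CA1-like neurons. Motors and dynactin subunits gave 0 of 14 in granule-like, CA1-like and inhibitory neuron-like nuclei and in cluster 6. Among 25 tau and other microtubule-binding genes, 2 were higher in granule-like neurons, both of them stathmins, which bind free tubulin dimers: Stmn1, at 79.5 CPM in AAV-TAU and 48.8 CPM in AAV-STOP (1.63), and Stmn2, at 84.8 CPM in AAV-TAU and 62.1 CPM in AAV-STOP (1.37). Stmn1 was also called in CA1-like neurons (1.48), inhibitory neuron-like nuclei (1.36) and cluster 6 (1.67). In granule-like neurons 13.1% of all genes and 22.5% of short genes were called. At the main scaling, the tubulin and chaperonin lists stood above both shares there and the autoregulation, modifying, nucleation and motor lists below both. With median-of-ratios scaling the chaperonin counts in granule-like and CA1-like neurons were lower, as given above. Shares of all genes under that scaling are not given here. The same split was seen in CA1-like neurons, with 8 of 14 chaperonin and 0 of 14 motor genes higher. It was also seen in inhibitory neuron-like nuclei (8 of 14 and 0 of 14), where the other tubulin genes, at 1 of 4, stood near the short-gene share of 24.9%. In some other classes the lists were not parted in this way. Motors and dynactin subunits were higher for 6 of 14 in oligodendrocyte precursor-like nuclei (median log2 ratio 0.26), where 15.7% of all and 38.7% of short genes were called, and for 4 of 10 in fibroblast-like nuclei (16.4% and 36.4%). Of the tau and other binding genes, 5 of 22 were higher in astrocyte-like nuclei (17.4% of all and 35.1% of short genes). In microglia-like nuclei 5 of 21 were higher (17.3% and 41%) and 3 lower (13.3% of all genes). These motor counts lay near the short-gene shares. The higher counts of binding genes lay between the shares of all and of short genes, and the lower count near that of all genes. The lists differ in gene length (Scaper spans 388 kb and Tubb4b 2.54 kb), and its part in these counts was not tested.

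Over the 28 points of 14 units in 2 libraries, the level pattern of Tuba1a, as log2(CPM + 5), was most like those of Fabp5 (Pearson r = 0.96), Ppp2r1a (0.96) and Mrpl20 (0.96) among 10247 genes compared. Tuba1b was most like Slc25a4, Ubb and Hspa8 (each 0.98), Tuba4a most like Atp5g1, Tubb2a and Chchd2 (each 0.96), Tubb2a most like Rrp1, Ndn and Mrfap1 (each 0.97), and Tubb5 most like Eef1a1 (0.98), Rab14 (0.96) and Set (0.96). Tubb3 had no close match, the best being Mrpl14 (0.85). Tubb4a was most like Prima1 (0.97), Depdc1b (0.96) and Cldn14 (0.96). Among the members themselves, Tuba1a and Tubb5 correlated at 0.95 and Tuba4a and Tubb2a at 0.96, whereas Tubb4a stood at -0.07 to 0.51 with the other 6. All points share library and depth, so these coefficients are descriptions.

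All 7 members matched a RefSeq promoter (build GRCm38.p6), taken as the 250 bases before the RefSeq start, and 4 motifs were searched on both strands of each. The GENCODE gene models given above start further upstream than RefSeq for all members but Tubb2a, so part or all of these 6 windows lies inside the GENCODE gene. CCAAT, the box bound by NF-Y, was in 3 of the 7 (Tuba1a, Tubb3 and Tubb5) and in 33.8% of 32851 promoters of this length. GGGCGG, the GC box bound by Sp1, was in 5 of the 7 (all but Tubb4a and Tubb5) and in 32.7% of promoters, and TATAAA, the TATA box, was in 1 (Tubb2a) and in 12.4%. GAANNTTC, the core of heat-shock elements, was in 0 of the 7 and in 6.69% of promoters. Tubb4a held none of the 4 motifs in this window, and in Tuba1a the 2 matches do not overlap. A match describes letters only and was not linked to the differences between the libraries.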

How the data were processed

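Single-nucleus RNA-seq libraries (10x Genomics 3′) of pooled hippocampi were made from 1 AAV-TAU and 1 AAV-STOP sample. The deposited values are UMI counts per gene and barcode, made with Cell Ranger 4.0 on mm10 per the submitters' processing notes, which also name Seurat 4.4.0; the header of the count matrices, per the file headers, names Cell Ranger 8.0.1. From there on, barcodes with under 500 UMIs, under 300 genes or over 5% mitochondrial UMIs were dropped (2 in AAV-TAU and 4 in AAV-STOP). Doublets were marked by comparison with simulated ones (9.50% of AAV-TAU and 11.3% of AAV-STOP barcodes) and removed. Nuclei were clustered on 3000 variable genes, leaving out 25 tubulin genes, with 30 principal components, 15 neighbours and Leiden resolution 1, into 44 clusters, of which 28 were named from marker lists. 22.2% of AAV-TAU and 20.2% of AAV-STOP nuclei had no named class.

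UMI counts were summed per library and class and scaled to CPM. Fold calls used genes with 100 or more UMIs over both libraries, and log2 ratios added 5 CPM to each level. With 1 library per group no test was run. Intervals are at 95% and cover counting error only, since nuclei of a library are not replicates. Recovery of known ratios was tested on simulated counts. Of the genes, 32235 of 32285 matched GENCODE vM21, the source of gene lengths and coding sequence. The members, gene lists and marker lists were chosen with earlier results of these data known. Besides all 7 members, the text names up to 3 genes per list and class with the largest log2 ratio, and for each member the 3 genes of most similar level; the other genes given (neuronal genes in glia) were chosen after their values were seen. Levels per nucleus, surpluses over glia and ranges of mitochondrial share were added after the data were seen. Tools were Python 3.11.15, numpy 2.4.6, scipy 1.17.1, pandas 2.3.3, igraph 0.11.9, leidenalg 0.10.2, scikit-image 0.26.0 and matplotlib 3.10.9. The ends of 2 coding sequences are not reported here.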

Additional observations from a re-analysis of the deposited data

How the results depend on the processing

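The alternatives covered the scaling, the CPM added before taking logs, the filters on counts, depth and mitochondrial share, doublets, cluster resolution, thinning, weighting and the fold that makes a call. Of the 86 values of a member in a class, 0 moved with 1 CPM or 20 CPM added and 0 with CPM computed without mitochondrial genes and Malat1. At median-of-ratios scaling 2 moved, with thinning to 1600 UMIs 6 of 69, and with nuclei of 0.2% mitochondrial share or less 8 of 61. With equal weights to finer clusters 4 of 86 moved, 3 of them in granule-like neurons (Tuba1a to a log2 ratio of 0.60, Tuba1b to 0.30 and Tubb2a to 0.20), and with marked doublets kept 2 of 82. Among the values called higher, the sign turned for 1, Tubb3 in oligodendrocyte precursor-like nuclei, whose log2 ratio was -0.050 after thinning. Tubb4a values without a call turned as well. Their lowest log2 ratios were -0.220 in cluster 6 (main value 0.077), -0.030 in subicular or cortical-like neurons (0.240) and -0.049 in astrocyte-like nuclei (0.029). In oligodendrocyte-like nuclei Tubb4a ran from -0.072 to 0.044. With a fold of 1.5 as the call limit, the members called higher numbered 5 in oligodendrocyte-like nuclei, 3 in CA1-like neurons, 3 in astrocyte-like nuclei, 2 in granule-like neurons, 2 in inhibitory neuron-like nuclei, 1 in oligodendrocyte precursor-like nuclei and 1 in cluster 6. Cluster 6 had 2 with median-of-ratios scaling and 2 with thinning, and the precursors had 3 with the mitochondrial limit of 0.2%. The cause was not tested. Cluster 6 gave no value at resolution 0.5 or with tubulin genes kept in the clustering. No paired analysis was possible because each group is 1 library. The depth limits the small classes most: Tuba1a in AAV-STOP microglia-like nuclei rests on 82 UMIs.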

Other observations

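One cluster outside the compared classes, cluster 22, held the highest Tuba1a levels seen. It had 455 AAV-TAU and 27 AAV-STOP nuclei and median mitochondrial shares of 0.592% in AAV-TAU and 1.14% in AAV-STOP, and was given no class by the marker lists (leading genes Cmss1, Lars2, Camk1d, Cnp and Hspa8). Tuba1a was at 814 CPM in its AAV-TAU and 624 CPM in its AAV-STOP nuclei, or 1.48 UMIs per nucleus in AAV-TAU and 1.52 in AAV-STOP. Tubb2a was at 604 CPM in AAV-TAU and 685 CPM in AAV-STOP, and Tubb5 at 513 CPM in AAV-TAU and 411 CPM in AAV-STOP. Nrgn gave 3.17 UMIs per nucleus in AAV-TAU and 5.70 in AAV-STOP nuclei of this cluster.

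Classes with under 100 nuclei in a library were not compared. Their Tuba1a levels were 229 CPM in AAV-TAU and 90.6 CPM in AAV-STOP cycling-like nuclei, 89.8 CPM in AAV-TAU and 83.9 CPM in AAV-STOP mossy-like neurons, 261 CPM in AAV-TAU and 102 CPM in AAV-STOP border macrophage-like nuclei, 235 CPM in AAV-TAU and 190 CPM in AAV-STOP endothelial-like nuclei, and 168 CPM in AAV-TAU and 116 CPM in AAV-STOP choroid plexus-like nuclei.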
